A study of Mus musculus with 18 samples.

Results

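The 4 adult globin genes and 5 genes of heme synthesis were followed through liver regeneration in the mouse. The globin genes were Hba-a1, Hba-a2, Hbb-b1 and Hbb-b2, and the heme synthesis genes Alas1, Alas2, Alad, Urod and Fech. They were chosen by symbol and are 9 of the 17180 genes in the deposited count tables. The liver came from C57BL/6 mice at 0.5, 2, 4, 24, 48, 72, 120 and 168 h after 2/3 partial hepatectomy, which removes most of the organ and is followed by regrowth of the remaining lobes, and after a sham operation. Each of the 9 groups held 2 libraries, 18 in all, and each library was made from a pool of 3 RNA samples of 1 time, so that n = 2 pools a group and spread between single animals cannot be seen. The sham group is labelled as control with no hour, and age and sex are not in the labels used here.

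Heme is an iron-holding ring that serves hemoglobin in red cells and the cytochromes P450, catalase and the respiratory chain in liver. Its synthesis starts in the mitochondrion with aminolevulinate synthase, passes through the cytosol, where Alad and Urod act, and ends in the mitochondrion, where ferrochelatase, the product of Fech, inserts iron. Alas1 encodes the first enzyme in liver and most other tissues and is held down by heme, while Alas2 encodes the first enzyme of developing red cells. Alpha globin (Hba-a1, Hba-a2) and beta globin (the Hbb genes) form hemoglobin, and both are made in large amounts by developing red cells. In bulk RNA, fewer cells of a type and less RNA per cell cannot be told apart.

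The globin genes were counted from reads that mapped to 1 gene only, and near-identical copies limit such counts. The end of the coding sequence of Hba-a1 (chr11:32283672-32284486, GRCm38.p6, RefSeq gene span) and Hba-a2 (chr11:32296492-32297310) is shown, bases 307 to 426, because the 426 coding bases of the pair in GENCODE M21 transcripts differed at 1 base, C381T. Positions are counted from 1 at the A of the start codon, with the Hba-a1 base first, and the capital marks that base.
Hba-a1: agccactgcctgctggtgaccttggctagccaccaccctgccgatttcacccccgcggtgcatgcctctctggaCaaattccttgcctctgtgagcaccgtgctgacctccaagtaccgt
Hba-a2: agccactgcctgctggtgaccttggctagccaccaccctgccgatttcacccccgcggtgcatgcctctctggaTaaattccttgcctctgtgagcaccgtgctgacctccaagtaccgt
For each gene 1 annotated coding transcript was used, the first by transcript name. Of all its 50-base stretches, 32.5% of those of Hba-a1 and 13.1% of those of Hba-a2 occurred in no other gene. For Alas1, Alas2, Alad and Fech the share was 100%, and for Urod 95.8%. None of the sources used here gives the read length, so these shares describe the annotation and not the deposited counts. The deposited percent of each gene's length covered by reads was 15.99% to 25.5% for Hba-a1 and 15.3% to 25.4% for Hba-a2, against 93.7% to 97.2% for Alas2. Reads shared by the pair may be missing from both rows, and the levels of both are therefore uncertain.

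The beta globin rows have a further limit. C57BL/6 mice carry the beta globin haplotype whose adult genes are Hbb-bs and Hbb-bt, whereas Hbb-b1 and Hbb-b2 are the adult genes of a different haplotype. In the tables Hbb-b2 had 0 to 2 reads and was at 0 in 8 of 16 complete libraries, which is at or under the floor of 3 reads (at most 0.386 CPM), and it could not be tested. Hbb-b1 had 61 to 249 reads. Hbb-bs (chr7:103826523-103827928), listed as Beta-s and matched by its gene identifier, had 513 to 1554 reads in all 18 libraries, 5.36 to 8.84 times those of Hbb-b1. Hbb-bs is given beside the Hbb rows, and it is not counted among the 9 genes. The limit of near-identical copies holds for it too, as Hbb-bs and Hbb-bt differed at 1 of 441 coding bases. Of the 50-base stretches of Hbb-bs, 34.2% occurred in no other gene, and reads covered 43.2% to 44.6% of its deposited length. The level of Hbb-bs is therefore uncertain as well.

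The stretches of 250 bases before the start site are shown for Hba-a1, Alas2 and Alas1 because Alas1 and Alas2 encode the same enzyme activity and took different courses in these libraries. They are from RefSeq promoters on GRCm38.p6, at chr11:32283422-32283671 (plus strand) for Hba-a1, at chrX:150547167-150547416 (plus strand) for Alas2 and at chr9:106247955-106248204 (minus strand) for the first of 2 start sites of Alas1. Capitals mark 3 motifs on either strand, GATAA (the core bound by GATA factors), CACCC (a box bound by KLF factors) and TATAA (the core of the TATA box), of which TATAA can overlap its own reverse complement.
Hba-a1: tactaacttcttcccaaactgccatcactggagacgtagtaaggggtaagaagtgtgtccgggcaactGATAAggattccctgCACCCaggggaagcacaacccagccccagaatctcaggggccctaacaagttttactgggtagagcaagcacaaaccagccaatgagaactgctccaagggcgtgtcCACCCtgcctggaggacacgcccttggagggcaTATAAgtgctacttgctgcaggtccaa
Alas2: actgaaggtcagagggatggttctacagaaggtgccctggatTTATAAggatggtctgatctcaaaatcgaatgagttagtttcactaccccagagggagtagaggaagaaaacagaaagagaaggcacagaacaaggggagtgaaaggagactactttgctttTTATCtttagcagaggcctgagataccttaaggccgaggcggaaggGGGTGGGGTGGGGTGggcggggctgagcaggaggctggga
Alas1: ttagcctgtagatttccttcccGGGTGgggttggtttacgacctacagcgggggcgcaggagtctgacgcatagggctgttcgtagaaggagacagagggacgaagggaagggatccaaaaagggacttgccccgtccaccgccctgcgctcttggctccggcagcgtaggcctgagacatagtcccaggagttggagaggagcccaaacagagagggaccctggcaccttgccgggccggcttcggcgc
In the window from 250 bases before to 50 bases after the start, Hba-a1, Hba-a2, Hbb-bs and Alas2 each held all 3 motifs. Neither window of Alas1 held GATAA or TATAA, and neither did those of Urod and Alad. Both windows of Alas1 held CACCC. Of 32851 mouse promoters of this length, 25.4% held GATAA, 57.5% CACCC and 24.9% TATAA. The windows of Hba-a1 and Hba-a2 shared an unbroken run of 297 of 300 bases. These matches are letters in a window, and binding was not measured. Of the 9 genes 6 had an entry in the promoter table.

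Library totals ran from 7.78 M to 9.16 M reads (M, mega). In 16 libraries the table was complete, and a gene with no row had 0 reads. The deposited table of sham replicate 2 stopped at a count of 52 and that of 0.5 h replicate 1 at a count of 157, so that a gene with no row there is unknown up to those counts. Alas1, Alas2, Urod and Fech were listed in all 18 libraries and were tested there among 4906 genes. Hba-a1, Hba-a2, Hbb-b1 and Alad were tested in the 16 complete libraries among 12199 genes, where sham and 0.5 h had 1 library each, assumed to vary like the other groups. Levels are given as CPM, counts scaled to library totals and between libraries by TMM factors. The 8 hepatocyte markers summed to 78033 to 164939 CPM, and of them 1 (Tat) rose at 2 and 4 h and 3 (Alb, Apoa1 and Ttr) fell at 24 h. Cyp2e1 and Apob fell at 48 h, at 72 h Cps1 rose and Cyp2e1 fell, and at 168 h Ttr rose and Apob fell. Of all genes in 18 libraries 8.76%, 35.7%, 17.3%, 36.8%, 12.6% and 5.75% passed at 2, 4, 24, 48, 72 and 168 h. With the 16 complete libraries 1 marker rose at 2 h and 1 at 4 h, 1 fell at 48 h, and 0 passed at 24, 72 and 168 h. Changes below are log2 differences with the SE, and p-values are from the quasi-likelihood test of edgeR with Benjamini-Hochberg adjustment over all genes tested.

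The number of the 8 tested genes that passed against sham was 3 for 4 h, 1 for 24 h, 2 for 48 h and 2 for 72 h. None passed for 0.5, 2, 120 and 168 h, where 3, 0, 2 and 2 had an unadjusted p under 0.05, all of them globin genes in 16 libraries. At 4 h the 3 called were Hba-a1, which rose, and Fech and Urod, which fell. Among all genes tested, 35.7% of the 4906 in 18 libraries and 15.5% of the 12199 in 16 libraries passed at that time, so that 2 of 4 and 1 of 4 are not far from the background. At 24 h the 1 was Alas2, which fell, where 17.3% passed in 18 libraries and 2.93% in 16. At 48 h Alas2 fell and Fech rose, where 36.8% and 14.9% passed. At 72 h Alas1 and Alas2 fell, where 12.6% and 3.82% passed. The background was 0.204% and 0.0492% at 0.5 h, 8.76% and 2.65% at 2 h, 0.775% and 0.107% at 120 h, and 5.75% and 0.082% at 168 h. Over all groups at once 6 of 8 passed, Urod and Alad being the exceptions, against 68.6% of all genes in 18 libraries and 42.8% in 16. In fits of only the 2 groups compared all 3 calls at 4 h were lost, with an edgeR adjusted p of 0.0553 for Hba-a1, 0.0852 for Urod and 0.1 for Fech.

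**Figure D1:**
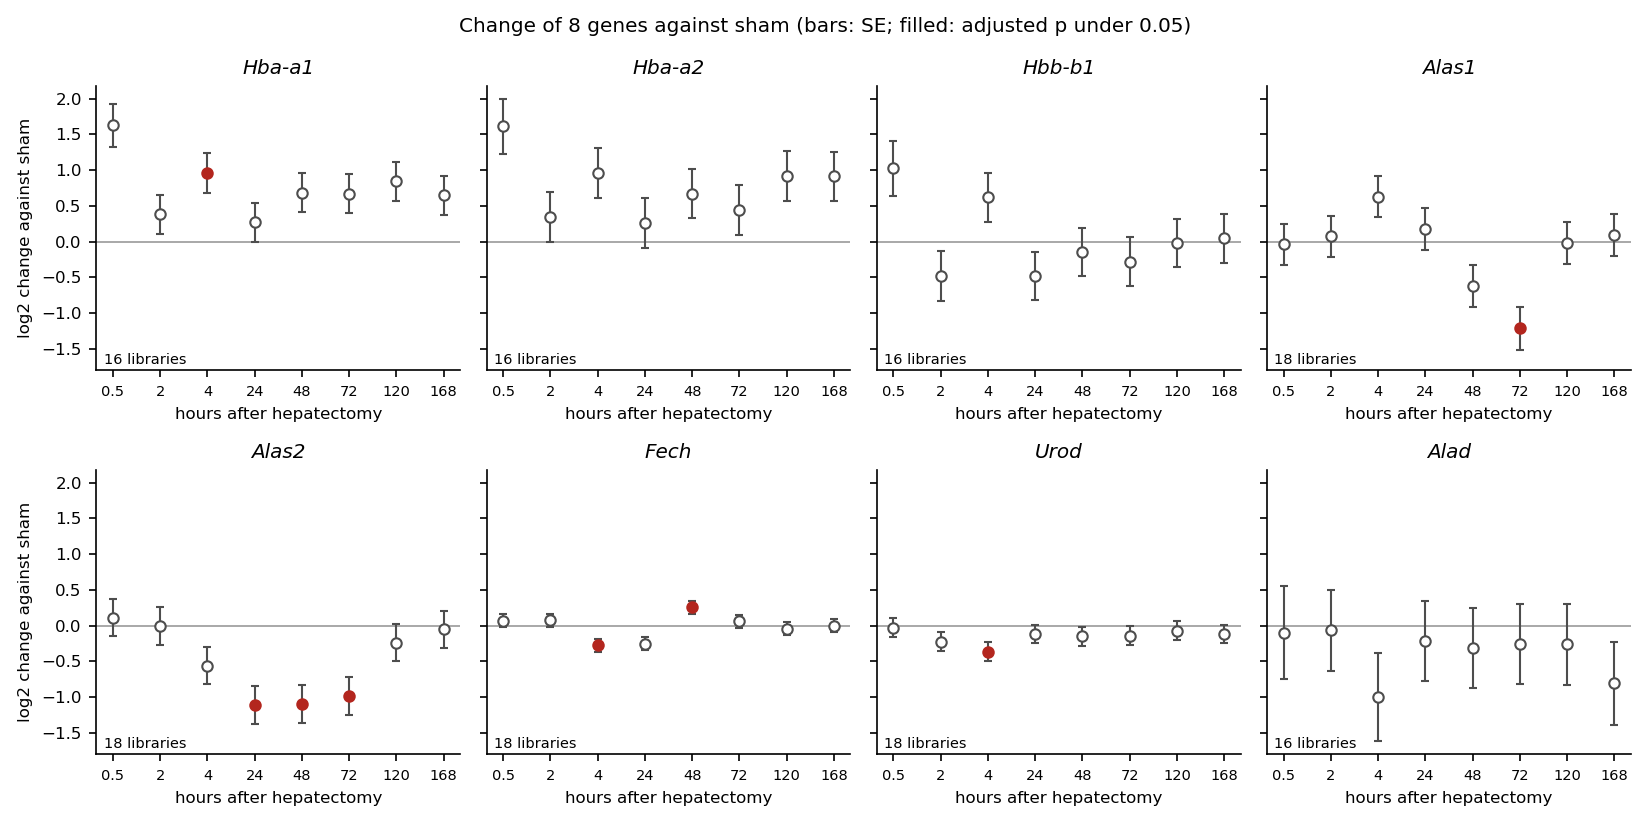
Log2 change against sham (vertical axis) at 8 times after hepatectomy (horizontal axis, hours) for 8 genes. Points are fitted changes with SE bars, filled where the adjusted p was under 0.05, and each panel names the number of libraries in its test. Alas2 stands near -1.11, -1.10 and -0.98 at 24, 48 and 72 h.

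The first enzyme of the liver pathway, Alas1 (chr9:106233455-106247954), had the highest level per length of the 9 genes, with a median of 165 RPKM (reads scaled by gene length and library total) over 18 libraries. Its level was 335 and 598 CPM in the sham pools, 489 and 419 at 0.5 h, and 496 and 484 at 2 h. At 4 h the pools held 752 and 692 CPM, the highest of the course, and at 24 h 577 and 475. The level was 294 and 313 CPM at 48 h, 246 and 156 at 72 h, 428 and 492 at 120 h, and 647 and 350 at 168 h. Both 4 h pools lay above both sham pools, and both 48 h and both 72 h pools lay below them, while the sham pools themselves stood far apart.

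By the test, Alas1 fell at 72 h by 1.21 on the log2 scale (SE 0.30, a 2.32-fold difference, adjusted p = 0.0176), lower in 2 of 2 pools. The values at 4 h, 0.63 (SE 0.29, adjusted p = 0.109), and at 48 h, -0.62 (SE 0.29, adjusted p = 0.112), missed the threshold. Alas1 differed among the 9 groups with an adjusted p of 0.00635 in edgeR's test. The 2 sham pools decide these values: without sham replicate 2 the change at 4 h was 1.11 (edgeR, adjusted p = 0.027) and that at 72 h -0.74 (adjusted p = 0.18), and without sham replicate 1 that at 48 h was -0.98 (adjusted p = 0.0412). Without 72 h replicate 2 the change at 72 h was -0.91 (edgeR, adjusted p = 0.203). From 72 to 120 h Alas1 stood higher by 1.19 (SE 0.30), with an adjusted p of 0.064 in edgeR over 18 libraries and 0.0433 over 16. The 4 pools of these times did not overlap. In that step 1.16% of genes passed in 18 libraries and 1.11% in 16, and 0 of the 8 genes tested did in edgeR (2 at an unadjusted p under 0.05, Alas1 and Alas2), while DESeq2 called Alas1 (adjusted p = 0.00162).

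Alas2 (chrX:150547417-150570622), the red cell form of the same enzyme, took another course. Its level was 184 and 134 CPM in sham, 163 and 180 at 0.5 h, and 142 and 175 at 2 h. It was 95.9 and 120 CPM at 4 h, 80.9 and 67.0 at 24 h, 81.1 and 67.5 at 48 h, and 102 and 58.7 at 72 h. At 120 h it was 163 and 107 CPM, and at 168 h 170 and 138. All 8 pools from 4 to 72 h lay below both sham pools, and the pools of the last 2 times overlapped with sham.

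Alas2 fell at 24 h by 1.11 on the log2 scale (SE 0.26, 2.15-fold, edgeR adjusted p = 0.0125), at 48 h by 1.10 (SE 0.26, 2.14-fold, adjusted p = 0.00658) and at 72 h by 0.98 (SE 0.26, 1.98-fold, adjusted p = 0.0272). The difference at 4 h, -0.56 (SE 0.26), had an edgeR adjusted p of 0.114. At 120 h it was -0.24 (SE 0.26, edgeR adjusted p = 0.658) and at 168 h -0.05 (SE 0.26, adjusted p = 0.917). None of the 7 steps from one time to the next passed for Alas2, the nearest being 24 h against 4 h with an adjusted p of 0.127 in edgeR. Without sham replicate 1 the calls were lost at 24, 48 and 72 h, with changes of -0.86, -0.85 and -0.73 and adjusted p of 0.115, 0.0713 and 0.21 in edgeR. Leaving out replicate 2 of the time itself also lost them, with -0.99 at 24 h (edgeR, adjusted p = 0.0835), -0.96 at 48 h (0.0631) and -0.62 at 72 h (0.275). Alas2 shares 311 exon bases with Apex2 and 61 with Mir3620 on the opposite strand, Alas1 shares 465 with 4930500F10Rik, and no source used here says whether the counting used strand.

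**Figure D2:**
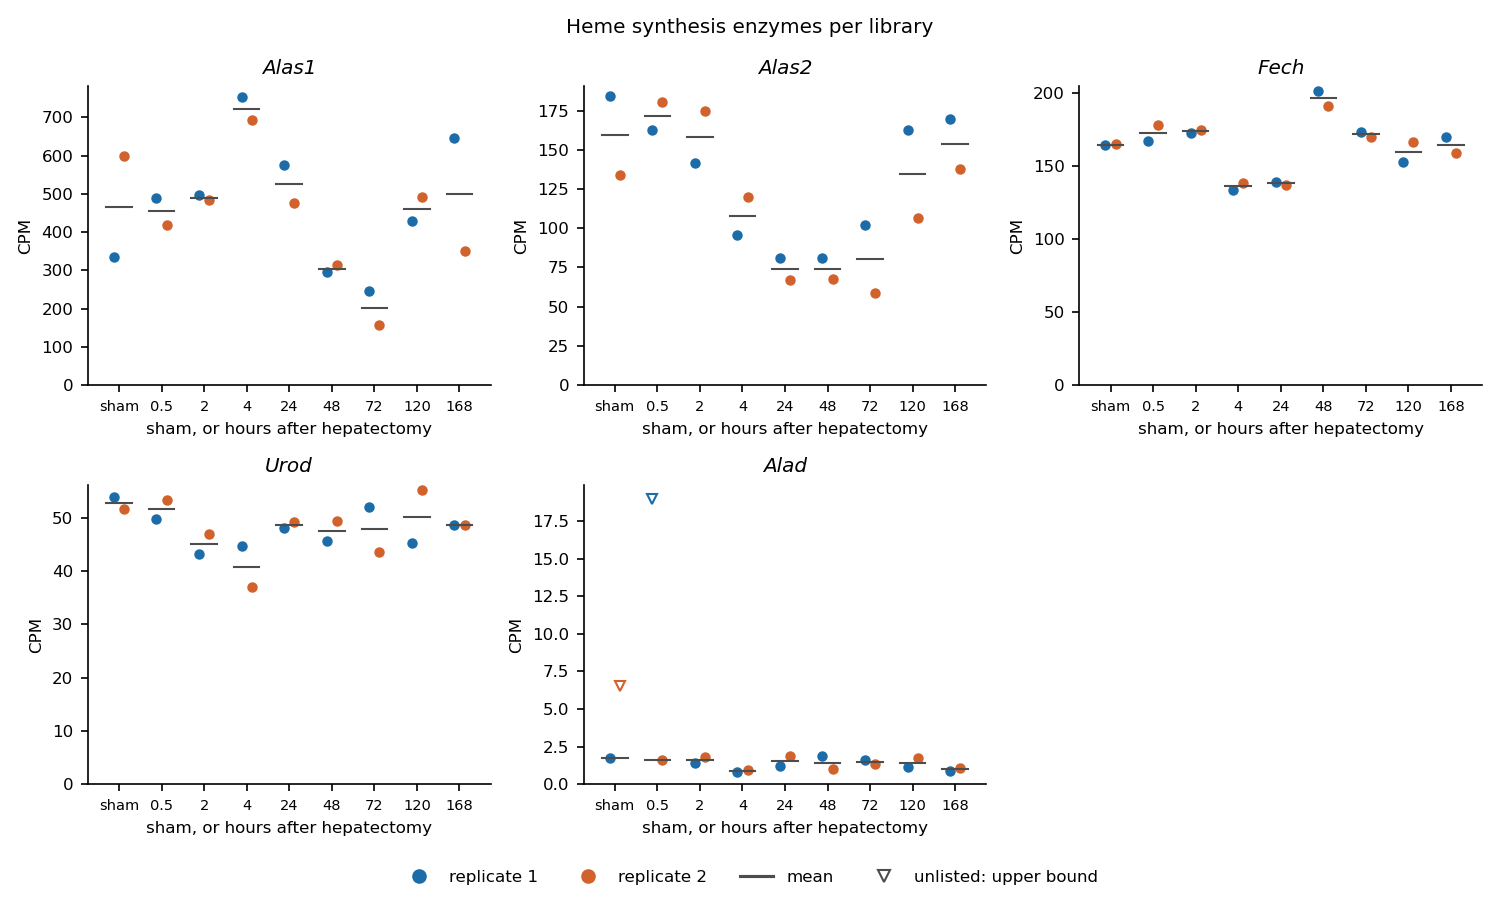
Level of 5 heme synthesis genes in CPM (vertical axes, from 0) in each library by group (horizontal axes, sham or hours after hepatectomy). Points are pools, colored by replicate number, bars are means of the pools with a known value, and open triangles are upper bounds where a short table did not list the gene. Alas1 is highest at 4 h (752 and 692 CPM), while Alas2 lies below both sham pools from 4 to 72 h.

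The ratio of the forms within a library does not depend on scaling between libraries. Alas1 had 1.82 and 4.46 times the reads of Alas2 in the sham pools, 2.32 to 3.00 times at 0.5 h and 2.77 to 3.50 times at 2 h. The ratio was 5.77 and 7.84 at 4 h and 7.09 and 7.13 at 24 h, above all 14 libraries of the other groups. It was 3.63 to 4.64 at 48 h, 2.40 to 2.66 at 72 h, 2.62 to 4.60 at 120 h and 2.54 to 3.81 at 168 h. Per length, from RPKM, the ratio ran from 1.33 to 5.75 over the 18 libraries, so that Alas1 exceeded Alas2 in each. The 12 pools of the other 6 groups, from 2.32 to 4.64, spanned about the range of the 2 sham pools.

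**Figure D3:**
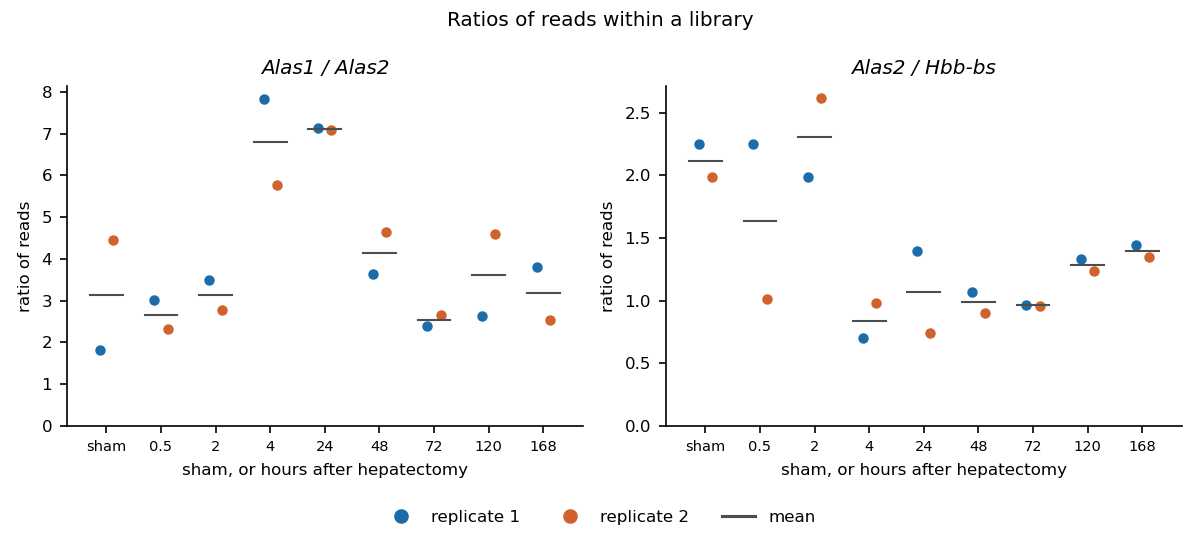
Ratio of reads of Alas1 to Alas2 (left) and of Alas2 to Hbb-bs (right) within each library, by group (horizontal axes, sham or hours after hepatectomy). Points are pools and bars are means. The left ratio is 5.77 to 7.84 at 4 and 24 h, and the right one is 1.98 to 2.25 in sham and 0.698 to 1.40 from 4 to 72 h.

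The middle enzymes are Alad and Urod. Alad (chr4:62505984-62520063), aminolevulinate dehydratase, had 5 to 19 reads in 16 libraries (0.81 to 1.87 CPM), and reads covered 1.37% to 4.32% of its deposited length of 4536 bases, a thin sample of the gene. No comparison passed for Alad, and at 4 h, with 5 and 6 reads against 14 in the 1 sham pool known, the change was -0.997 (SE 0.62, edgeR adjusted p = 0.313). Urod (chr4:116989965-116994436), uroporphyrinogen decarboxylase, had 53.9 and 51.6 CPM in sham, and at 4 h it had 44.7 and 37.1. It fell at 4 h by 0.37 (SE 0.13, 1.29-fold, edgeR adjusted p = 0.0449). That call was lost under 15 of 28 alternatives, such as without sham replicate 1 (edgeR, -0.34, adjusted p = 0.171), without sham replicate 2 (-0.40, 0.104) and without 4 h replicate 2 (-0.23, 0.295), and, with an adjusted p from 0.0513 to 0.0635, without either 0.5 h, 48 h or 168 h library or 24 h replicate 2. Urod did not pass among the 9 groups (edgeR adjusted p = 0.323).

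Fech, the last enzyme, showed small differences with narrow spread. Its level was 164 and 165 CPM in sham, 167 and 178 at 0.5 h, 173 and 175 at 2 h, and 134 and 139 at 4 h. It was 139 and 137 CPM at 24 h, 202 and 191 at 48 h, 174 and 170 at 72 h, 153 and 167 at 120 h, and 170 and 159 at 168 h. The 4 pools of 4 and 24 h were the lowest 4 of the 18, and the 2 pools of 48 h were the highest.

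Against sham Fech fell at 4 h by 0.27 (SE 0.09, 1.21-fold, edgeR adjusted p = 0.0325) and rose at 48 h by 0.25 (SE 0.09, 1.19-fold, adjusted p = 0.0429). Between times it fell from 2 to 4 h by 0.35 (SE 0.09, edgeR adjusted p = 0.0234) and rose from 24 to 48 h by 0.51 (SE 0.09, 1.42-fold, adjusted p = 0.00413). The backgrounds of those steps were 14.7% and 14.5% of genes in 18 libraries, and Fech was the 1 gene of the 4 tested there to pass in each. The rise from 24 to 48 h kept its call in 26 of 28 alternatives and lost it without 48 h replicate 1 (0.46, edgeR adjusted p = 0.0525) and in a fit of these 2 groups only. The call at 4 h against sham was lost without either sham pool (edgeR adjusted p = 0.114 and 0.119) or either 4 h pool (0.154 and 0.0804), and that from 2 to 4 h without any 1 of its 4 pools (0.0517 to 0.131). The call at 48 h against sham was lost in 15 of 28 alternatives, among them without either sham pool (0.161 and 0.132), either 48 h pool (0.237 and 0.0925), either 4 h, 120 h or 168 h pool or 24 h replicate 1 (0.052 to 0.0696).

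Among the globins, Hba-a1 had 8.13 and 9.65 CPM in sham, 24.7 in 0.5 h replicate 2, and 10.6 and 9.76 at 2 h. It had 16.8 and 15.5 CPM at 4 h, 9.07 and 10.8 at 24 h, 14.95 and 11.6 at 48 h, and 14.5 and 11.7 at 72 h. At 120 h it had 16.2 and 12.5 CPM, and at 168 h 12.8 and 12.2. In 0.5 h replicate 1 it was unlisted and at most 19.0 CPM, which is below the value of the other 0.5 h pool. The 0.5 h value therefore rests on 1 pool, and the highest values after it are those of 4 h and of 120 h replicate 1.

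Hba-a1 rose at 4 h by 0.96 on the log2 scale (SE 0.28, 1.95-fold, edgeR adjusted p = 0.0323 over 16 libraries), where the fit held 1 sham pool, and DESeq2 gave an adjusted p of 0.0521. At 48 and 72 h the values were 0.68 (SE 0.27, edgeR adjusted p = 0.106) and 0.67 (SE 0.27, adjusted p = 0.199), and limma on log2(RPKM + 1) called that at 48 h (0.79, adjusted p = 0.0236). With both sham pools, in 17 libraries, the rise was 0.85 (SE 0.21, edgeR adjusted p = 0.00724), an alternative added after seeing the data. With 1 pool at 0.5 h, it fell from 0.5 to 2 h by 1.24 (SE 0.25, edgeR adjusted p = 0.0155) and from 4 to 24 h by 0.69 (SE 0.21, adjusted p = 0.034). At 0.5 h against sham the value was 1.62 (SE 0.30, edgeR adjusted p = 0.135) over 16 libraries, 1 pool against 1, and 1.49 (SE 0.23, adjusted p = 0.0194) over 17 libraries. Without 4 h replicate 1 or 2 the change at 4 h against sham was 0.89 or 1.03 (edgeR adjusted p = 0.113 or 0.0568), and that from 4 to 24 h was -0.61 or -0.76 (0.149 or 0.0768). It was -0.61 without 24 h replicate 1 (edgeR, 0.105). Without 2 h replicate 1 or 2 the step from 0.5 to 2 h was -1.27 or -1.22 (edgeR, 0.0674 or 0.0773).

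Hba-a2 ran close to Hba-a1. It had 6.25 CPM in the sham pool in which it was known (at most 6.52 in the other), 18.8 in 0.5 h replicate 2, 7.52 and 7.71 at 2 h, and 14.1 and 10.8 at 4 h, and from 24 to 168 h it ranged from 6.40 to 13.5. The step from 0.5 to 2 h passed, -1.27 (SE 0.31, edgeR adjusted p = 0.0446 over 16 libraries), and the value at 4 h against sham, 0.96 (SE 0.35, adjusted p = 0.0864), did not. That step was lost in 9 of 24 alternatives, among them without either 2 h pool (edgeR adjusted p = 0.177 and 0.131), without 4 h replicate 1 (0.05002) and without a 72 h or a 168 h pool (0.0574 to 0.0639). Reads of Hba-a1 were 0.991 to 1.55 times those of Hba-a2 over 16 libraries.

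Hbb-b1 had 14.3 and 7.64 CPM in sham, 28.6 in 0.5 h replicate 2, 9.61 and 10.02 at 2 h, 23.5 and 21.3 at 4 h, and 8.004 and 12.7 at 24 h. From 48 to 168 h it ranged from 9.01 to 16.3 CPM. The 4 h pools lay above all later ones and above both sham pools. Its change at 4 h against sham was 0.62 (SE 0.34, edgeR adjusted p = 0.256) over 16 libraries with the higher sham pool alone, and 1.02 (adjusted p = 0.0246) over 17 libraries with both. From 0.5 to 2 h it fell by 1.505 (SE 0.33, edgeR adjusted p = 0.0249), from 2 to 4 h it rose by 1.10 (SE 0.29, adjusted p = 0.0379) and from 4 to 24 h it fell by 1.10 (SE 0.28, adjusted p = 0.0131). The first step was lost without either 2 h pool (edgeR adjusted p = 0.126 and 0.0945), the second without any 1 of its 4 pools or either 168 h pool (0.0534 to 0.167), and the third without 4 h replicate 1 (0.0731) or 24 h replicate 1 (0.0655).

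Thus 3 of the 4 genes tested in 16 libraries passed in the step from 0.5 to 2 h, all lower, where 3.21% of genes passed and 1.57% were lower, and where 0.5 h was 1 pool, replicate 2. Hbb-bs, known in both 0.5 h pools, did not pass this step (-0.86, SE 0.35, edgeR adjusted p = 0.123 over 18 libraries). With unlisted genes taken as 0, the step was -0.23 for Hba-a1, -0.25 for Hba-a2 and -0.49 for Hbb-b1 (edgeR adjusted p = 0.955, 0.961 and 0.906). That setting cannot decide the step. It gives 0.5 h replicate 1 the lowest count possible, where a gene with no row is unknown up to 157 reads. Of the 4 genes tested in 18 libraries 0 passed in that step, against 13.3% of genes (0 at an unadjusted p under 0.05). In the step from 2 to 4 h 1 passed, where 6.7% did, and from 4 to 24 h 2 passed, where 22.4% did. From 4 to 24 h 0 of the 4 genes in 18 libraries passed, against 34.5%. In the later steps 0 of the 4 genes in 16 libraries passed in edgeR or had an unadjusted p under 0.05, against 6.57% of genes for 24 to 48 h and 0.656% for 48 to 72 h, the latter 3.67% in 18 libraries. The globin genes share sequence and cells and are not independent of each other.

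Hbb-bs, in all 18 libraries, showed how far the 0.5 h pools differed. It had 82.0 and 67.5 CPM in sham, 72.2 in 0.5 h replicate 1 and 178 in 0.5 h replicate 2, and 71.4 and 66.9 at 2 h. It had 137 and 122 CPM at 4 h, 57.9 and 90.2 at 24 h, 75.7 and 75.1 at 48 h, 106 and 61.3 at 72 h, 123 and 86.5 at 120 h, and 118 and 102 at 168 h. One 0.5 h pool lay within the sham range and the other above all 17 other libraries, so the high Hbb-bs value of 0.5 h replicate 2 was not shared by its partner pool. At 4 h against sham the change was 0.80 (SE 0.35, 1.74-fold, edgeR adjusted p = 0.094), with both pools above both sham pools. Without 0.5 h replicate 1 or replicate 2, it was 0.80 in each case (edgeR adjusted p = 0.0297 for both), and the steps from 2 to 4 h and from 4 to 24 h passed as well (0.0366 and 0.0281 without replicate 1). Over 9 groups Hbb-bs had an edgeR adjusted p of 0.134, and 0.0119 or 0.0486 without 0.5 h replicate 1 or 2. The calls of Hba-a1, Hba-a2 and Hbb-b1 over all groups were lost without 0.5 h replicate 2 (edgeR adjusted p = 0.0673, 0.1 and 0.0614).

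**Figure D4:**
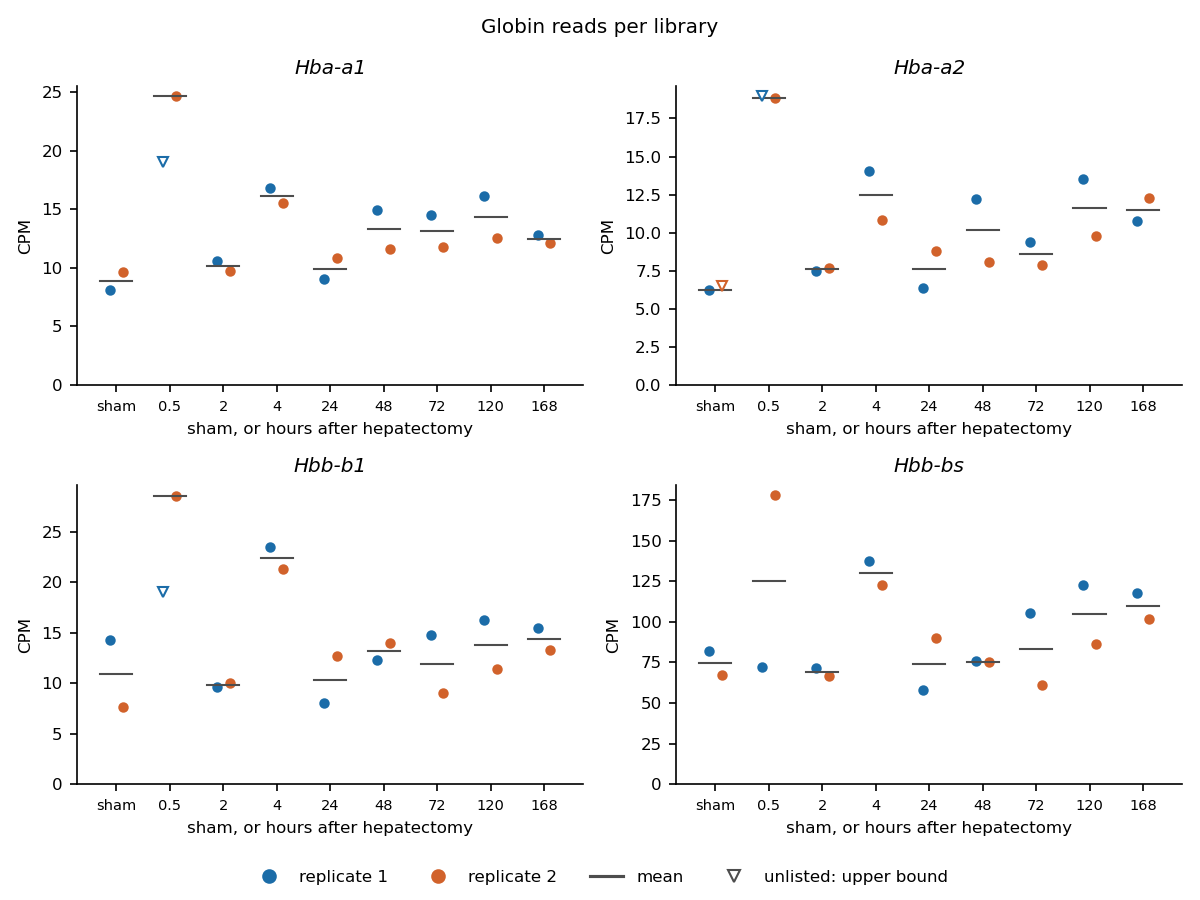
Level of 4 globin genes in CPM (vertical axes, from 0) in each library by group (horizontal axes, sham or hours after hepatectomy). Points are pools, bars are means of the pools with a known value (1 pool where the other is an open triangle, an upper bound). In each panel 0.5 h replicate 2 is the highest known value, while the bound of its partner pool for Hba-a2 (19.0 CPM) lies just above it, and for Hbb-bs the partner pool has 72.2 CPM against 178.

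Uniquely mapped globin reads were scarce. The 4 globin genes together made 0.00247% to 0.00738% of the reads of the 16 complete libraries, and with Hbb-bs 0.00847% to 0.0256%. Alas2 had 5 to 22.7 times the reads of Hba-a1 and 1.76 to 6.44 times those of the 4 globin genes together. These are ratios of uniquely mapped reads, which near-identical copies limit for the globin rows. Hbb-b1 and Hbb-b2 are also genes of another haplotype, so the ratios are not those of mRNA levels. Per length, the median of Alas2 was 59.9 RPKM against 22.0 for Hba-a1, 16.6 for Hba-a2, 22.7 for Hbb-b1 and 136 for Hbb-bs. Fech had a median of 57.1 RPKM, Urod of 42.4 and Alad of 0.31. In that order Alas1, Alas2, Fech and Urod overlapped in range with their neighbours, as did Hbb-b1, Hba-a1 and Hba-a2, while Alad and Hbb-b2 (0 to 0.371 RPKM) lay below all of these. The ratio of Alas2 to Hbb-bs reads was 2.25 and 1.98 in sham, 2.25 and 1.01 at 0.5 h, 1.99 and 2.62 at 2 h, 0.698 and 0.98 at 4 h, and 0.743 and 1.40 at 24 h. At 48 and 72 h it was 0.899 to 1.07, and at 120 and 168 h 1.23 to 1.44, below both sham pools in all 12 libraries from 4 h on.

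By likeness over the 16 complete libraries, among 7019 genes with a mean of at least 10 CPM, Hba-a1 was closest to Hba-a2 (Pearson r = 0.934 of log2 CPM), Hbb-bs (0.822), Hbb-b1 (0.788), Trappc4 (0.751) and Tob2 (0.73). The genes closest to Alas1 were Kif3b (0.888), Zfp623 (0.86), Cirh1a (0.86), Ttc1 (0.851) and Pex3 (0.848). For Alas2, a search added after values had been seen, they were Ces3a (0.965), Ces3b (0.947), Ces1f (0.935), Ciao1 (0.931) and Ugt3a2 (0.926). Ces3a, Ces3b and Ces1f are carboxylesterases and Ugt3a2 is a conjugating enzyme, known for their expression in liver. With the globins the r of Alas2 was 0.2 (Hba-a1), 0.305 (Hba-a2), 0.391 (Hbb-b1) and 0.492 (Hbb-bs). With Alas1 it was 0.401. These r describe the 16 libraries, which share groups and scaling, and carry no test.

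The other genes of heme synthesis were read from a list of 13 enzymes and carriers, all tested in 18 libraries or, where unlisted, 16. At 4 h 4 of 13 fell and 0 rose, where 35.7% of all genes in 18 libraries passed in either direction. For 24 h 1 rose and 2 fell (17.3% of all genes), for 48 h 2 rose and 3 fell (36.8%), and for 72 h 1 rose and 2 fell (12.6%). At 4 and 48 h these counts are near the share of all genes. None passed in edgeR for 0.5, 2, 120 and 168 h, where 3, 3, 1 and 4 had an unadjusted p under 0.05. With the 16 complete libraries and 1 sham pool for all, 3 fell at 4 h and 3 at 48 h, and 0 rose or fell at 24 and 72 h. The median change at 4 h was -0.27, beside 0.01 for all genes in 18 libraries. Abcb10, a mitochondrial inner membrane transporter tied to heme synthesis, had 37.6 and 31.3 CPM in sham and 14.2 and 15.3 at 4 h, and fell by 1.22 (SE 0.16, edgeR adjusted p = 9.09e-05), also at 24 h (-0.57, adjusted p = 0.0204) and 48 h (-0.69, adjusted p = 0.00437). Tmem14c, a carrier of porphyrins into the mitochondrion, fell at 4 h by 0.56 (SE 0.13, edgeR adjusted p = 0.00368) and rose at 72 h by 0.44 (SE 0.12, adjusted p = 0.0318). Pgrmc1, a heme-binding membrane protein, fell at 24, 48 and 72 h, the largest change being -0.88 at 48 h (SE 0.15, edgeR adjusted p = 0.000903). Clpx, a mitochondrial chaperone that acts on the Alas proteins, fell at 48 h by 1.07 (SE 0.22, edgeR adjusted p = 0.00316) and at 72 h by 0.77 (SE 0.22, adjusted p = 0.0387).

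Genes that break down, bind or move heme were 11. At 4 h 4 of 11 rose and 0 fell, near the 35.7% of all genes that passed in 18 libraries, and 3 rose in the 16 complete libraries, where 15.5% passed. For 2, 24 and 168 h 1 rose each (8.76%, 17.3% and 5.75% of all genes), and for 48 h 1 rose and 1 fell (36.8%). The median change at 4 h was 0.37, beside 0.01 for all genes. Hmox1, heme oxygenase, which opens the heme ring, had 31.4 and 22.2 CPM in sham, 125 and 217 at 2 h, and 322 and 158 at 4 h. It rose by 2.68 at 2 h (SE 0.45, edgeR adjusted p = 0.00212) and by 3.16 at 4 h (SE 0.45, adjusted p = 0.000154). At 4 h Hp, the plasma protein that binds free hemoglobin, rose by 1.76 (SE 0.39, edgeR adjusted p = 0.00361), and Cd163, the macrophage receptor for that complex, by 0.73 (SE 0.24, adjusted p = 0.0269). Slc48a1, a heme transporter of the lysosome, rose at 24 h (0.79, edgeR adjusted p = 0.0111), 48 h (0.51, 0.0436) and 168 h (0.78, 0.0338).

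Of 11 regulators of Alas1 3 rose and 2 fell at 4 h (2 and 1 in the 16 complete libraries), where 35.7% of all genes passed in 18 libraries and 15.5% in 16. For 2 h 1 rose (8.76% of all genes), for 24 h 1 rose and 1 fell (17.3%), for 48 h 1 rose and 2 fell (36.8%), and for 168 h 1 fell (5.75%). Ppargc1a, the coactivator that raises Alas1 in fasting, had 10.3 and 11.8 CPM in sham, 42.7 and 28.0 at 2 h, and 44.3 and 32.9 at 4 h. It rose by 1.84 at 2 h (SE 0.38, edgeR adjusted p = 0.0203 over 16 libraries) and by 1.88 at 4 h (SE 0.38, adjusted p = 0.00483). Nr1i3, the receptor CAR, which binds the Alas1 gene in response to drugs, fell by 1.20 at 4 h (SE 0.20, edgeR adjusted p = 0.000547) and rose by 1.12 at 24 h (SE 0.18, adjusted p = 0.00188). Bach1, a repressor that heme releases, rose by 0.72 at 4 h (SE 0.17, edgeR adjusted p = 0.00453) and fell by 0.94 at 48 h (SE 0.17, adjusted p = 0.00146). Foxo1 fell at 24 and 168 h by 0.56 (edgeR adjusted p = 0.0111 and 0.0338). Whether any of these moved Alas1 was not tested.

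**Figure D5:**
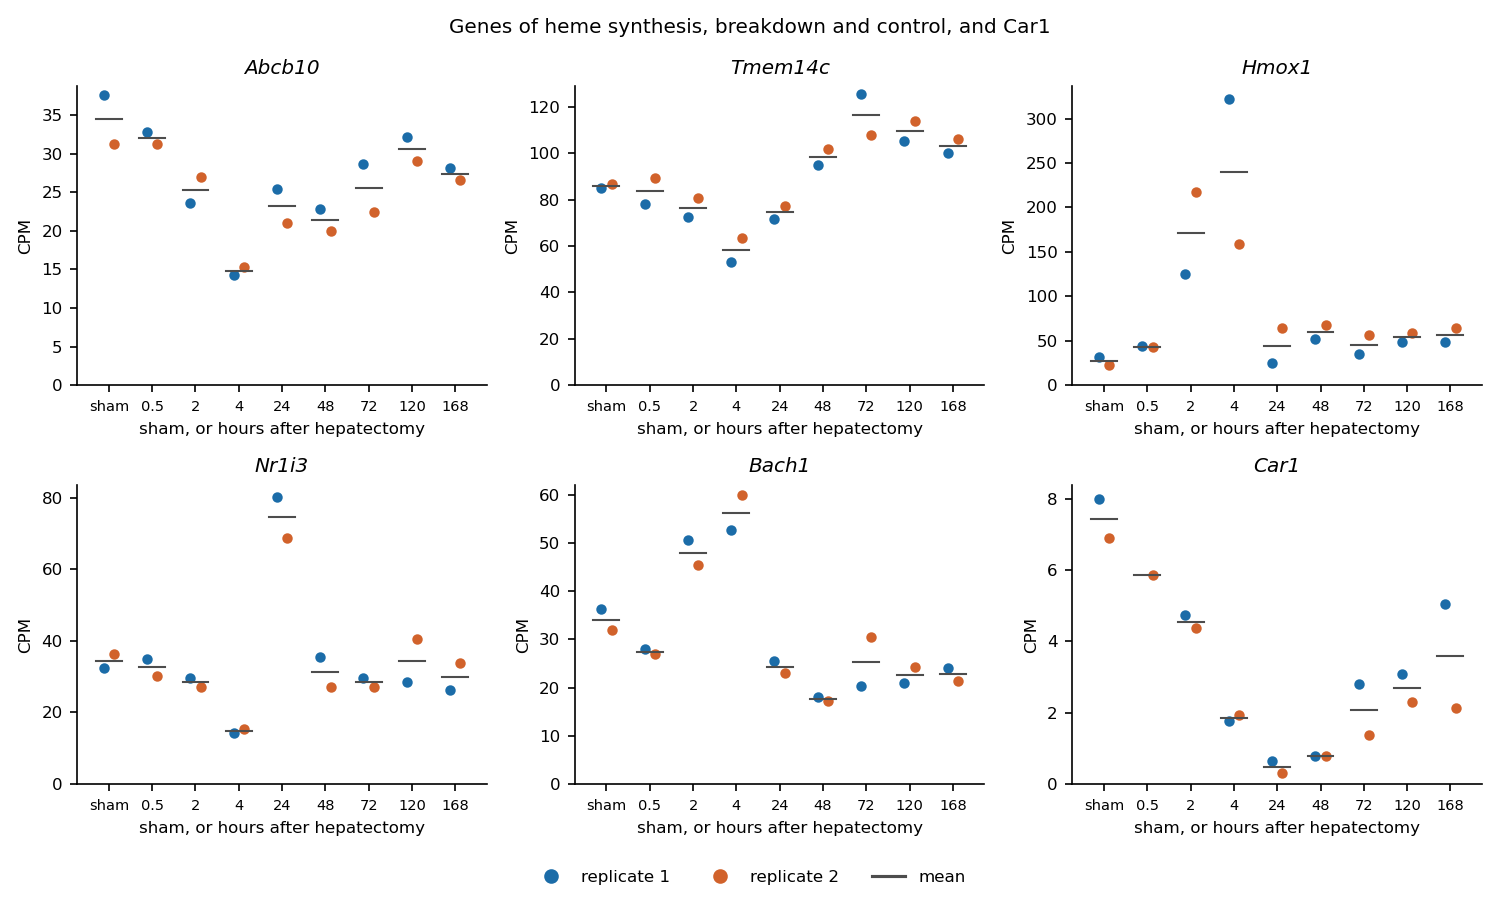
Level in CPM (vertical axes, from 0) of Abcb10 and Tmem14c (heme synthesis), Hmox1 (heme breakdown), Nr1i3 and Bach1 (regulators) and Car1 (red cell and liver) by group (horizontal axes, sham or hours after hepatectomy). Points are pools and bars are means, and a pool with no known value is not drawn. Abcb10 and Nr1i3 are lowest at 4 h (14.2 to 15.5 CPM), where the means of Hmox1 and Bach1 are highest.

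Red cell markers were near the floor. Of 23 red cell genes 22 had a row, 11 were tested, and 7 of the 22 had 0 reads in at least 8 of the 16 complete libraries, namely Gata1, Gfi1b, Rhag, Rhd, Kel, Hemgn and Epb42. The summed level of the list was 81.7 CPM in the 1 sham pool in which all were known, 35.7 to 57.8 at 2 h, 66.0 to 76.1 at 4 h and 77.5 to 102 at 24 h, with the largest shares from Tfrc (median 28.0 CPM) and Bpgm (median 14.8), which other cells also express. Slc4a1, the anion exchanger of the red cell membrane, named after its values were seen, had 1 read in sham replicate 1, 41 in 0.5 h replicate 2, 29 and 18 at 4 h and 0 to 22 in the other 12 libraries. Its change at 4 h did not pass (edgeR adjusted p = 0.0612), and as with the globins its highest count was that of 0.5 h replicate 2.

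Car1, a carbonic anhydrase of red cells and other tissues, went the other way. It had 8.003 and 6.89 CPM in sham, 1.78 and 1.94 at 4 h, 0.64 and 0.312 at 24 h, and 0.787 and 0.799 at 48 h. It fell by 2.13 at 4 h (SE 0.52, edgeR adjusted p = 0.015 over 16 libraries), by 4.06 at 24 h (SE 0.59, adjusted p = 0.00393), by 3.34 at 48 h (SE 0.54, adjusted p = 0.00224) and by 1.96 at 72 h (SE 0.50, adjusted p = 0.045).

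Summed platelet and leukocyte markers were higher at 4 h than in sham replicate 1, the only complete sham pool. The red cell list was not, with 66.0 to 76.1 CPM at 4 h against 81.7 in that pool. The 8 platelet markers summed to 1.5006 CPM in sham replicate 1, 4.48 in 0.5 h replicate 2, 6.61 to 10.03 at 4 h, and 1.89 to 5.92 at 2 h and from 24 to 168 h, and 4 of the 8 had 0 reads in at least 8 complete libraries. The 10 leukocyte markers summed to 21.1 CPM in sham replicate 1, 43.8 in 0.5 h replicate 2, 63.9 to 126 at 4 h, and 15.3 to 84.8 at 2 h and from 24 to 168 h. The platelet sums of the 4 h pools lay above those of all 14 other complete libraries, and the leukocyte sums overlapped with 24 h. None of the 3 platelet and 6 leukocyte markers tested passed against sham at any time in edgeR, while at 4 h 2 and 4 had an unadjusted p under 0.05. Of 10 other globin genes 6 had a row and 2 were tested, Hbb-bs and Cygb, and neither passed against sham (2 at an unadjusted p under 0.05 at 4 h). The part of blood content in the globin values was not tested.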

How the data were processed

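Liver RNA of 18 pools was sequenced after oligo(dT) selection, per the labels' protocols. Reads were placed on mm10, a build named in the submitters' processing notes, and no source used here gives the aligner, counter, strand or read length. Per the file headers, the deposited counts are reads mapped uniquely to a gene, with the library total in the header. The deposited RPKM values are those counts scaled by gene length and header total. The deposited coverage percent is the covered share of each gene, per the file headers.

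The genes and the 94 genes of 8 lists (89 with a row) were chosen with earlier results of these data known. The counts were analysed by edgeR 4.0.16 under R 4.3.3: TMM scaling (factors 0.765 to 1.16), a quasi-likelihood fit of all groups together, and Benjamini-Hochberg adjustment over all genes tested with a threshold of 0.05. Genes were kept with 15 reads in total and, in 2 libraries, the CPM of 10 reads in the median library. Log2 CPM had a prior count of 2, and the SE is the log2 change over the root of F. The procedure was tried on simulated counts, with the same spread set for every gene and changes put in at 48 h only. Some list genes are not reported here. Named are all 9 genes, at most 4 called genes a list (smallest p over all groups first), and the 5 genes most like Alas1 and Hba-a1. Same-numbered pools did not deviate together (r from -0.546 to 0.53 over 36 pairs of groups), so the numbers do not pair the pools.

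Alternatives were DESeq2 1.42.0, RLE factors, limma 3.58.1 on log2 CPM or on log2(RPKM + 1), dropping the filter, fitting only the groups compared, unlisted genes as 0, the 16 complete libraries throughout, a replicate block, globin reads taken out, each library left out in turn and, added after seeing the data, 17 libraries with both sham pools. P-values measure the spread between pools, and limits from 3 reads (at most 0.386 CPM) cover counting error only. Sequences are from GENCODE M21 and RefSeq (GRCm38.p6).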

Additional observations from a re-analysis of the deposited data

How the results depend on the processing

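No call reversed its direction under any alternative run. The number of the 8 genes called against sham, as first reported, was 3 for 4 h, 1 for 24 h, 2 for 48 h, 2 for 72 h and 0 for the other 4 times, and 6 differed among all groups. At 0.5 h it was 1 with DESeq2, 2 with no filter and 1 with the 17 libraries, an alternative chosen after seeing the data. At 2 h it was 1 with limma on log2(RPKM + 1), where scaling by totals moved the median gene at 4 h by -0.34. Under that scaling 324 of all genes in 18 libraries were higher and 2314 lower at 4 h, against 829 and 920 with TMM, and Fech (-0.64) and Urod (-0.73) were lower by more and Hba-a1 (0.56, adjusted p = 0.0695) was no longer called. With DESeq2 124 genes in 18 libraries were called at 0.5 h (10 with edgeR), 198 at 120 h (38), 854 at 168 h (282) and 966 at 72 h (617). With unlisted genes taken as 0 it was 1 at 4 h, 1 at 48 h, 0 at 72 h and 3 among all groups. At 24 h it was 2 with DESeq2. With only the groups compared it was 0 at 4 h, where Alad fell under the filter. At 4 h DESeq2 gave 2, without Hba-a1 (adjusted p = 0.0521). At 48 h it was 1 with only the groups compared, 1 with the 16 complete libraries for every gene and 1 with the replicate block, where Urod at 4 h (adjusted p = 0.0542) and Fech at 48 h (0.0527) lost their calls. At 72 h it was 0 with the 16 complete libraries. Leaving out 1 library at a time gave 0 to 3 for 4 h, 0 to 1 for 24 h, 0 to 2 for 48 h, 0 to 2 for 72 h and 3 to 6 among all groups, the 3 without 0.5 h replicate 2. Leave-one-out counts against sham without sham replicate 1 could not be made for the genes of the 16 libraries, which then hold no sham pool, nor could a 2-group fit at 0.5 h. The calls of Alas1, Alas2 and Fech among all groups were kept in all 27 alternatives, and Alas2 at 24 and at 48 h in 26 of 28. The replicate numbers do not pair the pools (14 of 36 pairs had a correlation over 0.1), so a call lost in the block is not read as a weaker effect. The causes of these changes were not tested. With 2 pools a group, and 1 in sham and 0.5 h for the genes of the 16 libraries, small changes and the low counts of Alad, Hbb-b2 and the red cell markers were not resolved at this depth.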
